A study of Xenopus tropicalis x Xenopus laevis and Xenopus tropicalis with 6 samples.

Results

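Chromosome 3S is the short copy of the third chromosome of *Xenopus laevis*, and in the hybrids described here it came from the sperm. Its 1225 transcript features were taken from the deposited table as the *X. laevis* features placed on 3S, out of 27182 *X. laevis* features and 45244 features of both species. Of the 1225 features, 799 carry a name ending in .S, 676 carry a gene symbol, and 426 are known only by a model number. They were put in the order of their model numbers and cut into 12 bins, 11 of 100 features and a last one with the rest. No measured value entered the listing, the order or the bins, but the chromosome was chosen with earlier results of these data known.

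The hybrids came from *X. tropicalis* eggs fertilized with *X. laevis* sperm (replicates 40, 41 and 42), so their embryos start with a maternal *X. tropicalis* genome and a paternal *X. laevis* genome. The other group was *X. tropicalis* embryos (replicates 37, 38 and 39), which have no *X. laevis* genome. Whole embryos of both groups were collected 7 hours after fertilization, and polyA RNA was sequenced in 3 libraries per group, called biological replicates in the series text. The series title ties hybrid inviability to loss of paternal chromosomes and to a metabolic crisis, and the comparison asks how much RNA was read from the paternal 3S at this time.

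*X. laevis* arose from the joining of a pair of ancestral frog genomes, and its chromosomes survive as a long (L) and a short (S) copy. Each copy matches 1 chromosome of the diploid *X. tropicalis*, apart from the fused chromosomes 9_10L and 9_10S. An egg carries a large store of maternal RNA, and the embryo's own genome is switched on around the mid-blastula stage. RNA of the paternal genome is made by the embryo, apart from any RNA the sperm brings. Reads on *X. laevis* features in pure *X. tropicalis* embryos come from another genome than that of *X. laevis*, and they are called background here.

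Counts summed to between 71435751 and 88526278 in the hybrid libraries and between 90144765 and 100025277 in the *X. tropicalis* libraries. Of 36 early embryo marker genes, 32 were found among the *X. tropicalis* features, and all 32 had at least 1 CPM, a count scaled to the size of its library, in all 6 libraries. Their summed level was 3907 to 4737 CPM in the hybrids and 6562 to 6593 CPM in the *X. tropicalis* embryos. Of 13 markers of muscle, blood, eye and other later cells, 6 were found and 0 reached 1 CPM in all libraries. In whole embryos, fewer cells with the chromosome and less RNA per cell cannot be told apart.

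Of its 1225 features, 1173 had at least 1 count in the hybrids and 739 had counts in all 3 hybrid libraries. Per library, 934, 1026 and 877 features had a count in hybrid replicates 40, 41 and 42, and 566, 636 and 604 in *X. tropicalis* replicates 37, 38 and 39, which lack the chromosome. A feature was called above background where edgeR's quasi-likelihood test, fitted over all *X. laevis* features with at least 10 counts in the 6 libraries together, gave an adjusted p under 0.05 with a higher hybrid level. On 3S, 1124 features were tested, 469 were above background and 4 were below it. The share above was 41.7% of the tested features, against a background of 39.3% over all *X. laevis* features tested. The latter includes 3L and 4L, with 20.8% and 21.1%. Among the 9 S chromosomes 3S stood 7 from the top by this share, and the 8 others had 39.3% to 45.0%. The share below over all features was 0.275%. The median log2 fold change was 5.81 for the tested 3S features and 5.68 for all tested *X. laevis* features. The other 101 features had too few counts for a test, and at an unadjusted p under 0.05 the counts were 548 above and 5 below.

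The features above background had hybrid levels from 0.472 to 315 CPM, with a median of 3.17 CPM and a median background of 0.0131 CPM. For 116 of the 469, no *X. tropicalis* library held a single count. The net level used below is the hybrid CPM minus the mean CPM of the *X. tropicalis* libraries, and it is negative where the background is higher. Only 170 features had a background over 1 CPM, and 40 of these were called above it. Low features were patchy between libraries: 149 features (12.2%) had at least 50 counts in 1 hybrid library and 0 in another, and over all *X. laevis* features that share was 13.6%.

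Per feature, the mean level on 3S was 6.01 CPM in the hybrids and 2.06 CPM in the *X. tropicalis* embryos, a net of 3.95 CPM. The net level of the 8 other S chromosomes ranged from 3.87 to 6.60 CPM, and 3S stood 7 from the top among the 9 S chromosomes. All hybrid values exceeded all *X. tropicalis* values, and the exact two-sided permutation p of 0.1 is the smallest that 3 against 3 can give. The net level of 3S was 2.63-fold that of its long partner 3L. The log2 ratio of 3S to 3L was 1.54 in replicate 40, 1.33 in replicate 41 and 1.31 in replicate 42, a mean of 1.39 ± 0.13 (SD, n = 3). An exact sign-flip test over the 3 libraries gave p = 0.25, the smallest it can reach. The ratio fell to 0.61 on the log2 scale when the background was not subtracted.

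The signal was not even along the chromosome. The first bins, at the low end of the model numbers, were the weakest, and bin 10, holding features 901 to 1000, was the strongest. In bin 1 the net level was 0.297 ± 0.362 CPM per feature (SD over 3 hybrid libraries), with 0.560, -0.116 and 0.447 CPM in replicates 40, 41 and 42. Bin 2 had 1.47 ± 0.0863 CPM and bin 3 had 2.18 ± 0.281 CPM. Bins 4 to 9, 11 and 12 lay between 3.06 CPM in bin 8 and 5.65 CPM in bin 4, and bin 10 had 12.2 ± 1.35 CPM. Bins 1, 2, 3 and 10 kept their rank in each of the 3 hybrid libraries.

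In 11 of the 12 bins each hybrid library exceeded each *X. tropicalis* library, as they did in 98.4% of all 249 *X. laevis* bins. The exception was bin 1. Its hybrid levels were 8.28, 7.60 and 8.16 CPM per feature, and its background levels were 7.77, 7.27 and 8.11 CPM. Scaling by library totals turned the net of bin 1 to -0.556 CPM, so its sign depends on the scaling.

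**Figure D1:**
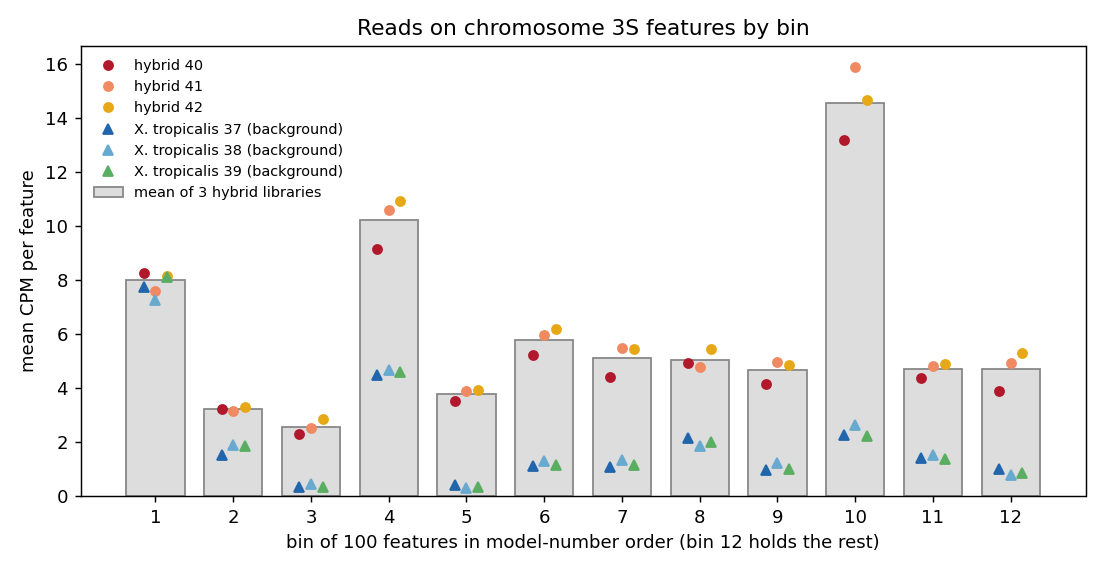
Mean CPM per feature in the 12 bins of chromosome 3S, in model-number order, with circles for the 3 hybrid libraries, triangles for the 3 *X. tropicalis* libraries and grey bars for the hybrid mean. In bin 1 circles and triangles overlap at 7.27 to 8.28 CPM, and in bin 10 the hybrid mean reaches 14.6 CPM.

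The share of features called above background followed a similar course at the low end. It was 15% in bin 1 and 23% in bin 2, and it lay between 38% and 52% in bins 3 to 12, highest in bin 5. Over 209 bins of the 15 chromosomes other than 3S, 3L and 4L, the share ranged from 19.1% to 57% with a median of 39%. No bin among those 209 lay as low as bin 1, and 4 lay below bin 2. The net level in the same 209 bins ranged from 0.764 to 19.5 CPM per feature, with 2 bins below bin 2. Among those bins, the 30 at the ends of their chromosomes ranged from 0.764 to 10.4 CPM and from 19.1% to 50% above background. On 3L and 4L, 28 bins had a median of 1.01 CPM and of 16.7% above background. Bin 1 of 3S lay below the lowest of those 28 in net level, 0.332 CPM per feature, and near their median in share. That rank rests on 1 feature, since without Xelaev18019732m bin 1 had 1.69 CPM, above the median of the 28 bins and above bin 2 of 3S, which was then the weakest. With the highest and the lowest feature of every bin left out, bin 1 was again the weakest, at 1.24 CPM.

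Bin 1 also had a high background, with 31 features over 1 CPM in the *X. tropicalis* libraries, against 6 to 18 in the other bins. Among features with a background of 1 CPM or less, 12 of 69 in bin 1 were above background (17.4%), and 23.3% in bin 2. In bins 3 to 12 that share was 39.3% to 52.1%, and in the 209 other bins it was 21.9% to 62.2% with a median of 40.7%. The weakest bin began at feature 1 with bins of 50 or 200 features, with bins shifted by 50 features, and when ranked by share. The strongest bin overlapped features 901 to 1000 in each of these but the ranking by share, where it was features 401 to 500. All of these settings but the ranking by share used the net level with Xelaev18019732m kept. They therefore do not bear on the part of that feature in the rank of bin 1.

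**Figure D2:**
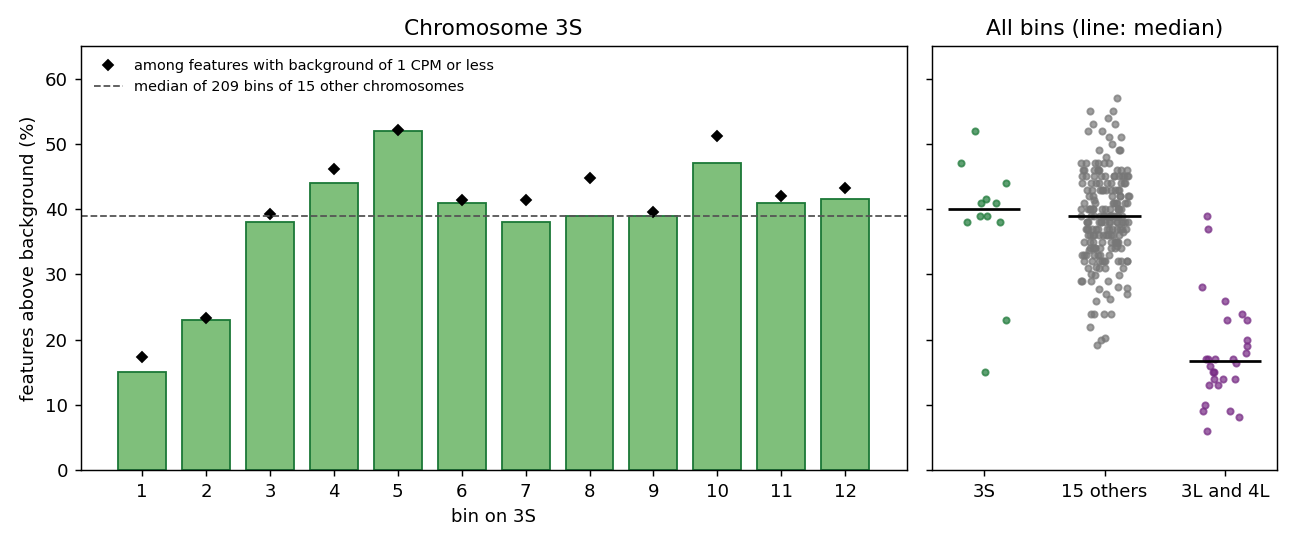
Left, percent of the features in each 3S bin that were above background (bars), the same among features with a background of 1 CPM or less (diamonds), and the median of 209 bins of 15 other chromosomes (dashed line). Right, each bin as a point for 3S, the 15 other chromosomes, and 3L with 4L, with the median as a line; bins 1 and 2 of 3S stand at 15% and 23%, and the 3L and 4L median is 16.7%.

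The model order could be set beside that of the *X. tropicalis* chromosome. Of 725 features on 3S with 1 *X. tropicalis* feature of the same name, 673 had that partner on *X. tropicalis* chromosome 3. In bins 6, 8, 9, 10 and 11 the partners ran in exactly the opposite order (Spearman's rho of -1.0 across features in each of these bins). In bin 1 only 10 of 44 names had their partner on that chromosome, and others such as *lrp6* and *strap* had it on scaffolds. In bin 2 it was 40 of 54, and in bins 3 to 12 all but at most 1 per bin.

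Few genes of bin 1 carried a clear paternal signal. The highest net level there was that of a model with the human name *WEE2*, a kinase that holds the cell cycle kinase CDK1 inactive in oocytes. Xelaev18019792m had 64.9, 90.9 and 108 CPM in hybrid replicates 40, 41 and 42 and 38, 41.1 and 48.1 CPM in *X. tropicalis* replicates 37, 38 and 39. The groups did not overlap, with a log2 fold change of 1.05 ± 0.26 (SE; edgeR adjusted p = 0.00126). The neighbouring models Xelaev18019732m and Xelaev18019733m both carry the human name *HAS1*, an enzyme that makes hyaluronan, and they went opposite ways. Xelaev18019733m had 41.5, 36.2 and 39.1 CPM in the hybrids and 0.215, 0.104 and 0.140 CPM in *X. tropicalis*. Xelaev18019732m had 247, 167 and 138 CPM in the hybrids and 348, 262 and 354 CPM in *X. tropicalis*, a log2 fold change of -0.81 ± 0.21 (edgeR adjusted p = 0.00189). That one feature, present in embryos without any *X. laevis* genome, had the lowest net level of bin 1, and without it the bin's net was 1.69 CPM per feature.

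Among the symbols of bin 1, *lrp6.S*, a Wnt co-receptor, had 1.36, 0.376 and 1.03 CPM in the hybrids and no count in *X. tropicalis* (edgeR adjusted p = 0.00458). *lrmp.S*, which encodes a membrane protein of the endoplasmic reticulum, had 7.96, 10.7 and 16.6 CPM over a background of 2.62, 5.45 and 2.60 CPM (edgeR adjusted p = 0.00635), a call lost without hybrid replicate 42. Both were above background, the first from none at all. The stress transcription factor *creb3l2.S* had 15.8, 23.5 and 41.9 CPM over 13.3, 20.6 and 14.8 CPM and did not pass. *strap.S* and the nuclear pore gene *nup50.S* did not pass either, with 20.6 and 14.2 CPM on average over a background of 11.7 and 11.1 CPM. Of the 10 symbols with the highest net level in bin 1, 2 were called above background.

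Bin 10 held 25.2% of the net level of the whole chromosome, 1220 of 4843 CPM. Its 4 highest features made up 64.7% of that, and without the top 2 its net was 6.46 CPM per feature, still above the other 11 bins. Its share of features above background, 47%, was below the 52% of bin 5. The first of the 4 was *prickle1.S*, a planar cell polarity gene that acts in the cell movements of gastrulation. It had 308, 282 and 300.5 CPM in hybrid replicates 40, 41 and 42 and 0.716, 0.647 and 0.552 CPM in *X. tropicalis* replicates 37, 38 and 39. The hybrid values were close together and far from the background, with a log2 fold change of 8.86 ± 0.29 (SE; edgeR adjusted p = 5.58e-23).

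The second was *btg1.S*, an antiproliferative gene whose protein binds the CCR4-NOT deadenylase. It had 256, 334 and 283 CPM in the hybrids and 0.511, 0.313 and 0.449 CPM in *X. tropicalis*. The log2 fold change was 9.42 ± 0.31 (edgeR adjusted p = 8.33e-23). *lrig3.S*, a leucine-rich repeat membrane protein that acts in neural crest formation in *Xenopus*, had 129, 122 and 116 CPM over 0.235, 0.240 and 1.05 CPM. *mdm2.S*, the ubiquitin ligase that degrades p53, had 64.0, 93.9 and 84.7 CPM over 0.153, 0.407 and 0.777 CPM. In each of these the groups were far apart, with log2 fold changes of 7.90 ± 0.47 and 7.49 ± 0.46 (edgeR adjusted p = 3.58e-16 and 9.35e-16).

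Lower in the bin came *dusp6.S*, a phosphatase that shuts off ERK as feedback on FGF signalling, with 23.4, 27.2 and 26.2 CPM over at most 0.0835 CPM. *lemd3.S*, an inner nuclear membrane protein that restrains Smad signalling, had 17.7, 29.3 and 22.9 CPM. *arid2-like.S*, a subunit of a chromatin remodelling complex, had 17.7, 28.0 and 18.4 CPM, and both had a background of at most 0.104 CPM. *slc16a7.S*, a monocarboxylate transporter, had 19.2, 34.9 and 28.9 CPM over a higher background of 4.93, 5.78 and 7.70 CPM. All 4 were above background (the largest edgeR adjusted p was 1.34e-05, for *slc16a7.S*).

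*cnot2.S*, a subunit of the CCR4-NOT deadenylase, stood on a high background. It had 137, 177 and 139 CPM in the hybrids, but 86.8, 119 and 82.7 CPM in *X. tropicalis*. The groups did not overlap, and the log2 fold change was 0.65 ± 0.22 (edgeR adjusted p = 0.0182). The call was lost with library totals and without each of 3 libraries in turn, hybrid replicate 41 and *X. tropicalis* replicates 37 and 39, with an adjusted p of up to 0.114.

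Of all 3S features above background, Xelaev18020297m in bin 4 had the highest mean hybrid level, 315 CPM. It carries the human name *MAT2A*, the enzyme that makes S-adenosylmethionine. It had 249, 327 and 370.04 CPM in the hybrids and 70.7, 58.4 and 77.8 CPM in *X. tropicalis*. Together the 12 features of any kind with the highest net level held 33.8% of the net level of 3S. The 12 symbols above background with the highest hybrid level are another set. *mex3b.S* (bin 6), an RNA-binding protein gene, had 188, 202 and 205 CPM over 31.4, 45.1 and 45.4 CPM, a log2 fold change of 2.29 ± 0.23 (edgeR adjusted p = 3.14e-10). *tmpo.S* (bin 11), a gene of the nuclear lamina, had 88.7, 57.2 and 90.4 CPM over 42.7, 42.1 and 48.7 CPM, a log2 fold change of 0.82 ± 0.26 (edgeR adjusted p = 0.0109). These 2 and *cnot2.S* were the 3 of those 12 symbols with a background over 30 CPM in every *X. tropicalis* library.

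The rest of the 12 symbols had a low background. The *X. tropicalis* features of the same name were not silent in *X. tropicalis* embryos, with means of 320 CPM for *pfkfb3* and 356 CPM for *fgfr4*. *pfkfb3.S* (bin 8), whose enzyme raises the activator of phosphofructokinase in glycolysis, had 92.2, 84.2 and 108 CPM over at most 0.428 CPM. *fgfr4.S* (bin 11), an FGF receptor, had 74.4, 85.0 and 68.9 CPM over at most 0.230 CPM. *dusp1.S* (bin 12), a phosphatase of stress-activated kinases, had 50.6, 61.3 and 95.7 CPM and was the most spread of the 3. *lman2l.S* (bin 4), a lectin of the secretory pathway, had 71.6, 64.4 and 65.9 CPM, and *hnrnpab.S* (bin 12), which binds nuclear pre-mRNA, had 56.3, 69.8 and 66.7 CPM. The log2 fold changes of these 5 lay between 8.45 and 9.21.

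**Figure D3:**
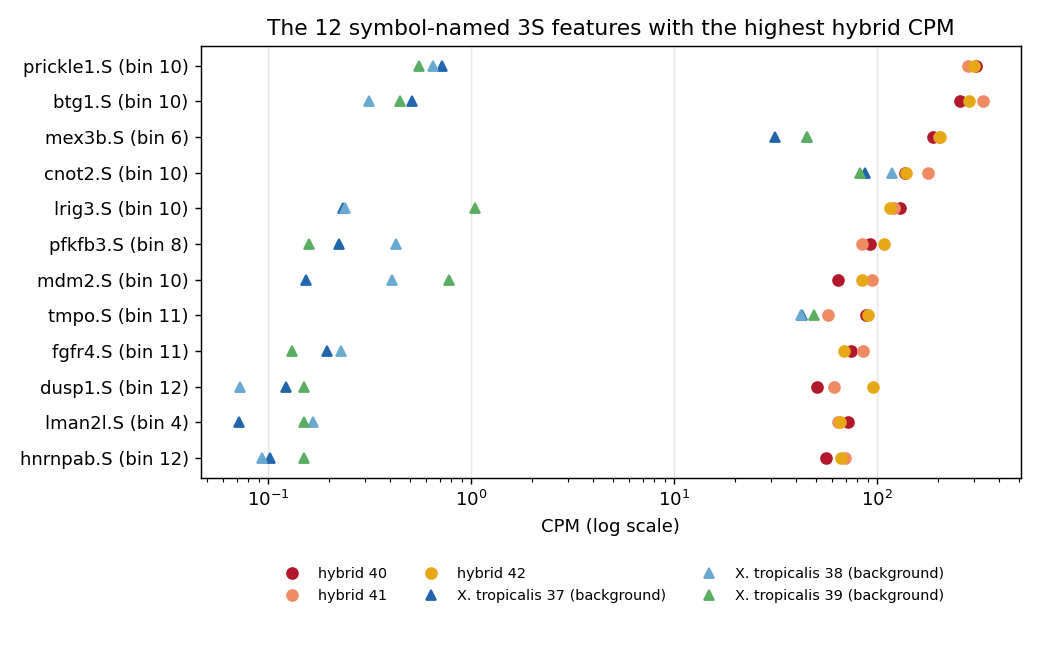
CPM on a log scale in the 3 hybrid libraries (circles) and the 3 *X. tropicalis* libraries (triangles) for the 12 symbol-named 3S features above background with the highest hybrid CPM. In 9 of them the triangles lie near or below 1 CPM, and *mex3b.S*, *cnot2.S* and *tmpo.S* have backgrounds over 30 CPM.

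Paternal copies of signalling genes were read at low to moderate levels. The list counts that follow stand beside 41.7% of the tested 3S features and 39.3% of all tested *X. laevis* features above background. Both shares include features known only by model number, while the lists hold symbols only. Among the 501 3S symbols paired with a 3L copy, 49.9% were above background, tested or not. The list medians stand beside median log2 fold changes of 5.81 and 5.68, but a fold over a background near 0 is loosely set. *lrp6.S*, at a mean of 0.924 CPM over none, had 9.34 ± 2.63 (SE), and *prickle1.S*, at 297 CPM, had 8.86 ± 0.29. The FGF, receptor kinase and MAPK list had 18 members on 3S by symbol, of which 16 were tested and 10 were above background, against a share of 39.3% over all tested *X. laevis* features, with a median log2 fold change of 7.59 among those tested. Beside *fgfr4.S*, *dusp1.S* and *dusp6.S*, the stress kinase gene *mapk12.S* had 27.1, 29.5 and 19.5 CPM, *fgfr1.S* had 7.64, 7.50 and 11.0 CPM and the ERK kinase gene *map2k1.S* had 8.81, 9.24 and 8.63 CPM, all above background. *spry4.S*, an antagonist of FGF signalling, had 23.7, 12.6 and 8.12 CPM over 17.4, 12.1 and 12.7 CPM and was not called. The list holds *ephx3.S*, an epoxide hydrolase, and *dusp11.S*, an RNA phosphatase counted as above background, both taken only by their symbols.

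The Nodal, BMP and TGF beta list had 7 members, of which 4 were above background. *szl.S*, the secreted BMP pathway inhibitor sizzled, had 10.03, 10.8 and 14.1 CPM over at most 0.0102 CPM. *nodal1.S* had 6.39, 4.57 and 1.98 CPM and *nodal2.S* had 3.05, 1.41 and 6.15 CPM, both ligands that induce mesendoderm. The inhibitory *smad6.S* had 6.62, 6.82 and 5.76 CPM. The median log2 fold change of the 7 was 8.41. Of 5 Wnt genes, 3 were above background: the ligand genes *wnt8a.S*, with 6.12, 2.998 and 2.92 CPM, and *wnt5b.S*, with 1.72, 2.05 and 0.355 CPM, and *lrp6.S*. *tcf7l1.S*, a repressor of Wnt targets, had 97.5, 106 and 118 CPM in the hybrids and 122.9, 138 and 135 CPM in *X. tropicalis*. Its background exceeded the level of the *X. tropicalis* feature of the same name, 62.9 CPM, and it was not called in either direction.

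RNA processing genes were above background in 8 of 11 cases, of which 10 were tested. That stands beside 39.3% of all tested features and 49.9% of the paired 3S symbols. Their median log2 fold change was 8.60. Highest were *hnrnpab.S*, *hnrnpa0.S* with 54.7, 59.5 and 70.4 CPM, and *hnrnph1.S* with 19.96, 27.8 and 42.8 CPM, all in bin 12. The spliceosomal *snrpf.S* had 5.78, 7.65 and 6.64 CPM. The translation factor list had 3 of 5 members above background, led by *eif3j-like.S* with 20.2, 26.8 and 36.0 CPM. It holds 2 tRNA synthetase genes, *rars.S*, which was above background, and *lars.S*, which was not called. The only ribosomal protein gene, *rps16.S*, had 14.1, 8.75 and 17.3 CPM and was above background.

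Of the 9 p53 and stress genes, 8 were above background, against 39.3% of all tested features, with a median log2 fold change of 7.69. The 8 include *btg1.S*, *mdm2.S* and *ccng1.S*, a cyclin induced by p53 in mammals, which had 26.6, 17.9 and 16.8 CPM over at most 0.0468 CPM. The others were *tp53bp1-like.S* and the chaperone genes *hspa4.S*, *hspa9.S*, *hspa14.S* and *dnajc2.S*, taken by their symbols. *hspa9.S* had 0 CPM in replicate 40 and *hspa14.S* in replicate 42. The chaperone gene *dnajb9.S* had 3.61, 4.81 and 6.83 CPM over 1.38, 1.59 and 4.34 CPM and was not called. Of the 6 cell cycle symbols, 4 were above background, led by the mitotic cyclin gene *ccnb2.S* with 50.1, 36.2 and 45.3 CPM. The 4 include *ccng1.S*, counted among the p53 and stress genes as well. The 2 not called were taken by the letters of their symbols: *cdc123.S*, whose protein assembles a translation initiation factor, and *cdc42se2-like.2.S*, a gene for an effector of Cdc42. DNA replication and repair had 1 of 5 above background, *polm.S*, a repair polymerase, at 0.458, 0.423 and 1.30 CPM, a call lost without hybrid replicate 42.

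Metabolic and transport genes were present too. Of 4 glycolysis and mitochondrial enzyme genes, 3 were above background: *pfkfb3.S*, *idh2.S* with 7.82, 5.28 and 10.4 CPM and *idh3a.S* with 3.53, 1.35 and 0.710 CPM. The last 2 encode isocitrate dehydrogenases of mitochondria. *hk2.S*, a hexokinase, had 0.323, 0.306 and 0.587 CPM over none and was not called by edgeR (adjusted p = 0.0633), but was by DESeq2. Of 4 respiratory chain and ATP synthase genes, 2 were above background, *atp5c1.S* and *uqcrq.S*, with mean levels of 3.31 and 1.30 CPM. Solute carriers and transporters had 11 of 20 above background, with 17 tested and a median log2 fold change of 4.18. The 11 include *atp5c1.S*, taken by its symbol and counted in both lists. *slc25a3.S*, the mitochondrial phosphate carrier, had 11.5, 13.7 and 12.9 CPM.

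Transcription and chromatin genes followed. *foxi1.S*, a forkhead activator of ectoderm, had 18.4, 27.8 and 20.2 CPM over at most 0.0655 CPM. Of 7 zinc finger genes, 5 were above background, led by *znf609.S* with 9.82, 19.8 and 26.9 CPM. Of 6 homeobox symbols, 5 were tested and 4 were above background, of which *emx1.S* had 1.17, 0.329 and 2.53 CPM and *cdx1.S* had 1.51, 0 and 2.32 CPM. Chromatin genes had 7 of 11 above background, among them the deacetylase *hdac3.S* with 9.42, 11.0 and 6.47 CPM and the maintenance methyltransferase *dnmt1.S* with 3.18, 2.33 and 4.05 CPM. The proteasome and ubiquitin list had 4 of 9 above background, adhesion and cytoskeleton 8 of 14, forkhead and related genes 2 of 3, and bHLH and Notch genes 1 of 4. The last list holds *tcf7.S* and *tcf7l1.S*, Wnt pathway genes taken by the letters of their symbols and counted in the Wnt list as well. Neither was called. *islr2.S* in the homeobox list and *vimp.S* in the adhesion list were likewise taken only by their letters. Calls lost when a single library was left out include those of *egr1.S*, *tlx3.S*, *msx2.S*, *kdm3b-like.S*, *usp18-like.S*, *foxb1.S* and *myf5.S*. No list member was below background. The counts per list are small, and in none of these lists was the share tested against other genes.

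The paternal level was then set beside the maternal one, the level in the same hybrid libraries of the *X. tropicalis* feature with the same name. The latter includes RNA stored in the egg. No library came from *X. laevis* embryos, so paternal reads landing on *X. tropicalis* features could not be measured. Any such reads are counted as maternal here. Feature lengths are not given, so each ratio is one of reads per feature and not of molecules. Over 621 pairs with a maternal level of at least 1 CPM, the paternal net level was 5.24%, 6.44% and 6.42% of the maternal level in replicates 40, 41 and 42, a mean of 6.03% ± 0.689 (SD, n = 3). The 8 other S chromosomes ranged from 5.37% to 10.2%. The median pair on 3S had 2.66%, and on the other S chromosomes 3.07% to 4.35%.

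By position, the paternal percentage was lowest in bins 1 and 3, at 1.93% ± 0.948 and 1.89% ± 0.191, and was 3.44% ± 0.548 in bin 2. It lay between 3.96% and 7.38% in the other bins except bin 10, where it was 15.7% ± 2.12. The median pair of bin 1 had 0.618% and that of bin 10 had 5.23%. The low value of bin 3 differs from its share of features above background, which was 38%.

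**Figure D4:**
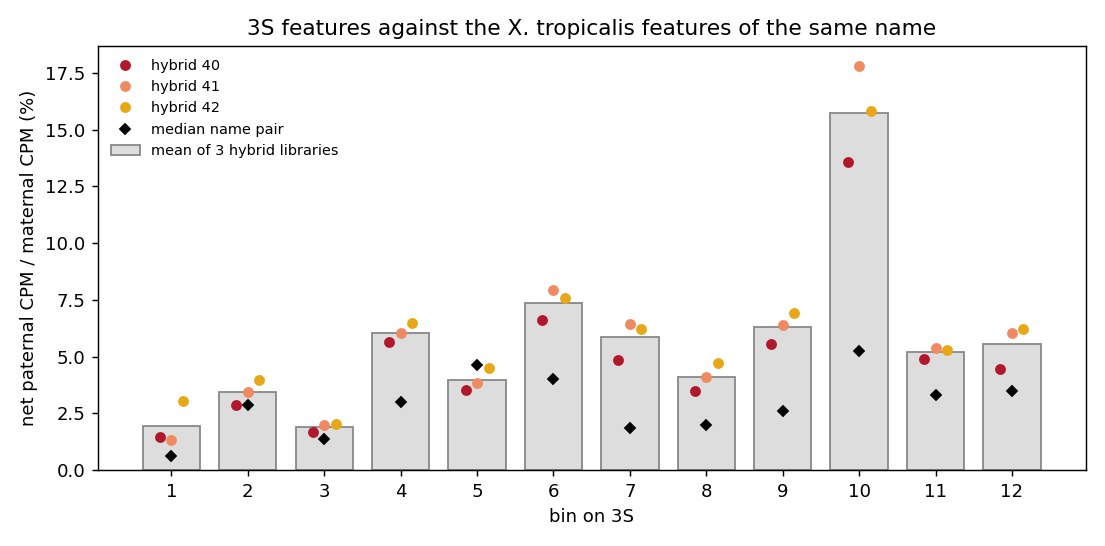
Net CPM of 3S features as a percentage of the CPM of the *X. tropicalis* features of the same name in the same hybrid library, summed by bin, for 621 pairs, with points for the 3 hybrid libraries, bars for their mean and diamonds for the median pair. Bin 10 has a mean of 15.7% and a median pair of 5.23%, and bins 1 and 3 have means under 2%.

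The paternal percentage varied widely between genes. Each percentage of a single gene, here and below, is the mean net level over the mean maternal level. The SD beside it is that of the ratios in the 3 hybrid libraries, whose own mean can differ. *prickle1* had 307, 289 and 286 CPM on the maternal feature in the hybrids, and the paternal net was 101% ± 3.67 of it. For *dusp6* the figure was 93.4% ± 46.0, for *dusp1* 83.8% ± 13.2, for *lrig3* 70.3% ± 9.50, for *btg1* 66.1% ± 12.7 and for *pfkfb3* 64.1% ± 6.72. The *dusp6.S* level exceeded the maternal one in replicates 40 and 41 (23.4 and 27.2 against 19.2 and 18.3 CPM). In replicate 42 it did not (26.2 against 44.6 CPM). *fgfr4* had 48.9% ± 9.27, *foxi1* 33.6% ± 10.4 and *mdm2* 26.8% ± 5.97. Lower percentages were found for *hnrnpab* at 5.93% ± 1.21 of 1082 CPM, *ccnb2* at 7.60% of 577 CPM and *fgfr1* at 1.34% of 649.8 CPM, where the maternal level is the denominator. In 318 pairs the paternal feature was above background, and in 110 of those the net was at least 10% of the maternal level. In 21 of them the net exceeded the maternal level in the mean. The pigment cell exchanger gene *slc24a5.S*, chosen by its place at the top of this ratio, had 21.2, 18.7 and 19.8 CPM and a maternal partner at 5.15, 4.26 and 3.23 CPM. *ccdc71l.S*, also chosen this way, had 24.7, 25.8 and 38.9 CPM over a background of 4.80 CPM and a partner at 1.98, 1.08 and 0 CPM.

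Few *X. tropicalis* copies of these genes passed the test between hybrids and *X. tropicalis* embryos. Of 665 tested partners, 4 were higher in the hybrids (0.602%) and 22 lower (3.31%), while among all 14079 tested *X. tropicalis* features 0.824% were higher and 2.95% lower. DESeq2 called 25 higher and 41 lower, and edgeR with library totals 4 and 36. Library totals shifted the median log2 fold change of all *X. tropicalis* features to -0.15. The higher ones included *mdm2*, with 313, 322 and 265 CPM in the hybrids and 67, 51.4 and 53.2 CPM in *X. tropicalis*, a log2 fold change of 2.39 ± 0.15 (edgeR adjusted p = 3.76e-05). *ccng1* had 649, 475 and 447 CPM against 97.2, 53 and 46.5 CPM, a log2 fold change of 2.999 ± 0.28 (edgeR adjusted p = 0.000185). *foxi1* had 67.5, 60.3 and 69.4 CPM against 31.1, 20.7 and 23 CPM, a log2 fold change of 1.40 ± 0.20 (edgeR adjusted p = 0.00246). For these 3 genes the paternal 3S copy was above background as well. Paternal reads landing on their *X. tropicalis* features cannot be told apart from maternal ones. The paternal 3S copy was not above background for the fourth, *LOC101735040*. That feature had 7.49, 6.03 and 3.61 CPM against 0, 0.0209 and 0 CPM (edgeR adjusted p = 0.00143), too few *X. tropicalis* counts for a fold. *LOC101735040.S* had 0, 0.0235 and 0 CPM in the hybrids.

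Hybrids start with *X. tropicalis* genes from the mother only, and *X. tropicalis* embryos with those of both parents. What part this difference in gene copies had in the lower levels was not tested. The lower ones included several genes whose paternal copy was well represented. *fgfr4* had 159, 142 and 165 CPM on the maternal feature in the hybrids and 312, 377 and 379 CPM in *X. tropicalis*, a log2 fold change of -1.20 ± 0.12 (edgeR adjusted p = 0.000394). *pfkfb3* had 151, 142 and 151 CPM against 339.9, 318 and 303 CPM, a log2 fold change of -1.12 ± 0.11 (edgeR adjusted p = 0.000263). *dusp6* had 19.2, 18.3 and 44.6 CPM against 74.3, 76.1 and 87.0 CPM, a log2 fold change of -1.53 ± 0.32 (edgeR adjusted p = 0.0231), a call lost without any 1 of 3 libraries, hybrid replicate 41 and *X. tropicalis* replicates 37 and 39. Other lower partners had few reads on the paternal copy. The sphingosine phosphate receptor gene *s1pr5* had 2.53, 0.776 and 3.04 CPM against 165, 153 and 129 CPM (log2 fold change -6.15 ± 0.44; edgeR adjusted p = 8.60e-05), and *s1pr5.S* had 0, 0 and 0.587 CPM. *gatm*, which makes the precursor of creatine, had 191, 183 and 193 CPM against 755, 597 and 586 CPM (log2 fold change -1.77 ± 0.13; edgeR adjusted p = 8.60e-05), and *gatm.S* had 4.39, 1.88 and 1.79 CPM, a net of 1.41% ± 0.765 of the maternal level. Of all 26 calls, 11 were lost under at least 1 alternative.

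Gene copies on 3S and 3L were compared in 501 pairs sharing a symbol. In 250 pairs (49.9%) the S copy was above background and in 99 (19.8%) the L copy was. Both were in 62 pairs, only S in 188, only L in 37 and neither in 214. The summed net level was 2844, 3395 and 3450.4 CPM for the S copies in replicates 40, 41 and 42 and 831, 1051 and 1005 CPM for the L copies. That ratio of 3.36 was close to the 3.195 of chromosome pair 4, while the 7 other pairs had ratios of 0.659 to 1.01. In those 7 pairs the S copy was above background in 44.1% to 51.1% of cases and the L copy in 46.2% to 49.6%.

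The S excess changed along the chromosome. In bins 4 to 12 the S copies exceeded the L copies in each of the 3 hybrid libraries, with 3081 against 448 CPM over 428 pairs. There, 51.9% of S copies and 18.2% of L copies were above background. In bins 1 to 3 the order was turned, with 149 CPM on S and 514 CPM on L over 73 pairs. In bins 1 and 3 the L copies were higher in each hybrid library, with means of 45.8 against 29.5 CPM in bin 1 and 431 against 89.4 CPM in bin 3. In bin 2, with 37.5 CPM on L and 30.3 CPM on S, replicate 41 went the other way. Even so, 38.4% of S copies and 28.8% of L copies of bins 1 to 3 were above background.

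Much of the L sum in bin 3 came from 1 gene. *ccng1.L* had 351, 360.5 and 331 CPM in hybrid replicates 40, 41 and 42 and at most 0.786 CPM in *X. tropicalis*, whereas *ccng1.S* averaged 20.4 CPM. Without *ccng1*, bin 3 had 84.2 CPM on L and 69.0 CPM on S. Of that L sum, *larp1.L* held a net of 30.0 CPM over a background of 22.7 CPM, and *larp1.S* had a net of 2.68 CPM. Among all 34 pairs of bin 3, 17 S copies and 9 L copies were above background. The highest S copies showed the opposite picture. The L copies of *prickle1*, *btg1*, *lrig3*, *pfkfb3* and *mdm2* had mean hybrid levels of 2.23, 2.098, 3.73, 2.03 and 4.86 CPM. *fgfr4.L* had 0, 0.212 and 0 CPM. *mex3b.L* had 174, 113 and 135 CPM, but 159, 163 and 186 CPM in *X. tropicalis*, and did not exceed its background.

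**Figure D5:**
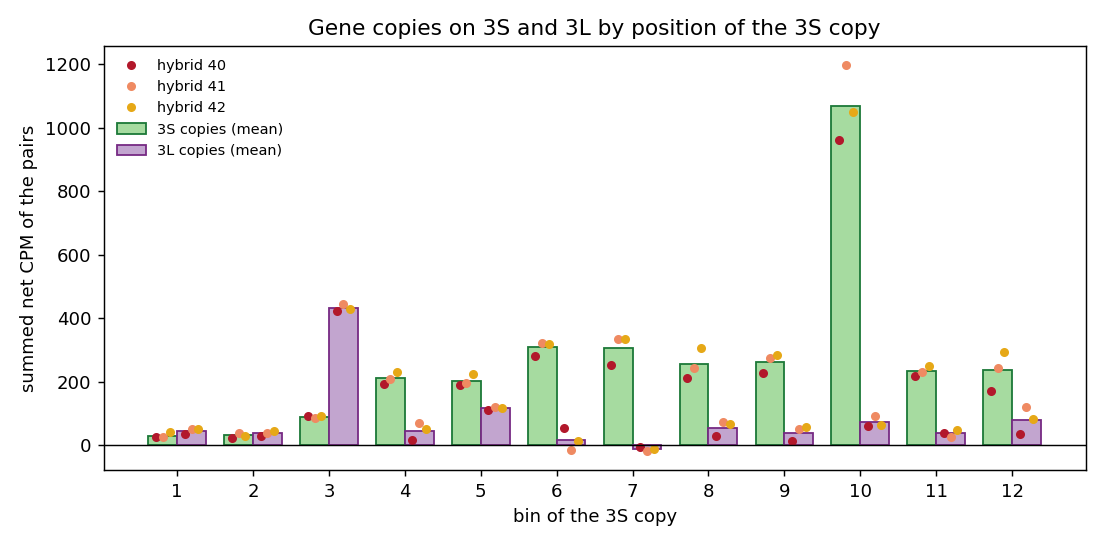
Summed net CPM of the S copies (green bars) and L copies (purple bars) of 501 gene pairs on 3S and 3L, by the bin of the S copy, with points for the 3 hybrid libraries. The L bar is the taller one in bins 1 to 3, reaching 431 CPM in bin 3, and the S bar in bins 4 to 12, reaching 1068.5 CPM in bin 10.

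Besides Xelaev18019732m, 3 features were below background. *kiaa0930.S* in bin 1 had 0, 0.118 and 0 CPM in the hybrids and 1.47, 0.908 and 1.43 CPM in *X. tropicalis*. *iqgap1-like.1.S* in bin 6 had no count in the hybrids and 0.491, 0.480 and 1.07 CPM in *X. tropicalis*, at least 50.7-fold lower against a floor of 3 counts over the group. Xelaev18021016m in bin 9 had no count in the hybrids and 1.17, 0 and 1.16 CPM in *X. tropicalis*, at least 57.9-fold lower against the same floor. All 3 calls were lost when single libraries were left out. At the threshold of the test, *klhl42.S* and *thap5.S* lay just inside, with hybrid means of 2.30 and 0.721 CPM, and *gpr19.S* and *cplx2.S* just outside, with 4.10 and 1.71 CPM.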

How the data were processed

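The authors deposited raw counts per transcript feature, without normalization, for 6 libraries. PolyA RNA was selected and amplified by PCR, per the labels' protocols, and BWA 0.7.10 was used, per the submitters' processing notes. For the counting program, genome builds, models and strand setting, nothing is given in the sources used here. How reads matching both copies of a gene, or both species, were assigned was not stated. Species, chromosome and order were read from the feature names. No genome was used, so no coordinates or sequences are given.

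CPM are counts over effective library sizes, the totals over all features times TMM factors from *X. tropicalis* features. Quasi-likelihood tests (glmQLFTest of edgeR 4.0.16 in R 4.3.3) were fitted over all *X. laevis* features whose counts in the 6 libraries reached 10, and separately over *X. tropicalis* features passing edgeR's own filter, with Benjamini-Hochberg adjustment at 0.05. Standard errors are the log2 fold change over the square root of F. The biological coefficients of variation were 1.32 and 0.65. DESeq2 1.42.0, other filters, scalings and bins, and leaving out each library were alternatives. No replicates were merged, since those of a group differed beyond sampling error (a chi-square of 67.5 to 106.5 per degree of freedom). Floors cover counting error only, since PCR copies are not independent molecules. In simulated counts of the *X. laevis* comparison (24684 features), 71.4% of 4-fold and 100% of 16-fold changes were called. The simulated spread between libraries was set well below the coefficient of 1.32 of the real fit. Changes were placed only in features with more counts than the filter asked for. These rates therefore do not give the power of the real test, which can be lower.

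The chromosome, the gene lists, which were matched by symbol patterns, and the tests were chosen with earlier results of these data known. Named features are the 12 symbols above background with the highest hybrid CPM, the 10 symbols with the highest net CPM and the largest feature of any kind in the strongest and the weakest bin, up to 5 features below background, up to 4 members per list with the smallest p, the 5 largest called changes each way among same-named *X. tropicalis* features, and the 6 S and L pairs with the highest S level. Not every such gene is reported. Others, including the *HAS1* pair, Xelaev18020297m, *ccng1.L* and list members that did not pass, were chosen after their values were seen. Figures were drawn with matplotlib 3.10.9.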

Additional observations from a re-analysis of the deposited data

How the results depend on the processing

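No paired analysis was made, and the groups share no replicate numbers. Those numbers do not show whether both groups came from eggs of the same females, so a clutch effect could not be assessed. The count of 3S features above background was 131 with a filter of 5 CPM in 3 libraries, where 199 features were tested; the count below was 2 with that filter and 1 to 5 without single libraries. Same-named *X. tropicalis* features that differed numbered 40 with library totals, 66 with DESeq2, 43 with a filter of 1 count, and 15 (without hybrid replicate 41) to 33 without single libraries. Net CPM per feature on 3S was 3.52 with library totals and 6.01 without background subtraction. The strongest bin had 9.33 without its highest feature and 14.6 without subtraction, and by share above background it began at feature 401. The weakest bin had -0.556 with library totals, -0.159 without its highest feature, 8.01 without subtraction, and 1.69 without its lowest feature, an alternative chosen after seeing the data. The log2 ratio of 3S to 3L was 0.61 without subtraction and 1.55 without the highest feature. Copies above background among 3S and 3L pairs, by alternatives chosen after seeing the data, were 203 to 270 on 3S and 72 to 126 on 3L. The paternal percentage was 2.66 as a median of pairs and 8.08 without subtraction. The cause of these moves was not tested beyond the change of setting itself. Among 93 named features, 13 lost their call under at least 1 setting, and *parp12.S*, never called, ranged from -1.15 to 0.18 on the log2 scale without single libraries, the latter without *X. tropicalis* replicate 37. In simulated counts, with less spread between libraries than the real *X. laevis* counts, 71.4% of 4-fold changes were called. Recovery was not split by count level.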
